A study of Mus musculus with 43 samples.

Results

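The Ly6 genes encode small surface proteins, and RNA of 8 of them was followed through mutant mouse oocytes and morulae: Ly6a, Ly6c1, Ly6c2, Ly6d, Ly6e, Ly6g6e, Ly6h and Ly6k. They were taken by symbol from the 35815 symbols that all 3 deposited tables hold, of which 16 start with Ly6. The choice used measured values: Ly6a and Ly6c1 because they were higher in maternal mutant morulae, and Ly6g6e because it was higher in PRC1-CD oocytes. For those genes in those comparisons the values below are a description without a test, and the choice stated no numerical threshold.

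Ly6 proteins carry a single disulphide-rich fold, the LU domain, and most are held on the outer face of the membrane by a glycosylphosphatidylinositol (GPI) anchor. Ly6a is the mouse stem cell antigen Sca-1, used to mark blood-forming stem cells, and Ly6c1 and Ly6c2 encode the Ly-6C antigen of monocytes and endothelial cells. Ly6e is the mouse receptor for the placental fusion protein syncytin-A, and both Ly6a and Ly6e are induced by interferon in many mouse cells. Ly6k is needed in mouse testis for sperm to enter the oviduct, Ly6d marks early B-lineage cells and Ly6h is a neuronal member.

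Polyadenylated RNA was measured in 43 libraries of mouse full-grown oocytes and morula embryos. The catalytic-dead set had 2 libraries of PRC1-CD oocytes, which carry a catalytically dead Polycomb repressive complex 1, and 2 of PRC1-WT oocytes, each from 10 pooled oocytes. The knockout set had 3 libraries each of TKO oocytes (Pcgf1, Pcgf6 and Mll2 deleted), DKO oocytes (Pcgf1 and Pcgf6 deleted) and WT oocytes. The morula set had 10 libraries each of matTKO, matDKO and WT embryos, where the same deletions were maternal. Pcgf1 and Pcgf6 are subunits of variant PRC1, which places ubiquitin on histone H2A, and Mll2 (gene symbol Kmt2b) is a histone H3 lysine methyltransferase. The Cre line behind the deletions, the age of the females and the genotype of the fathers are not given in the sources used here, nor is the number of oocytes or embryos in the knockout and morula libraries. No label says that replicates came from separate animals, and the p-values thus speak to the spread among these libraries, which may be technical.

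Levels are RPKM in oocytes and TPM in morulae, both scaled to transcript length, and log2 changes are of (value + 1). The 3 tables were normalised separately, so each test stays within its table. In bulk RNA, fewer cells of a type and less RNA per cell cannot be told apart. All 16 oocyte markers examined had a mean of at least 1 RPKM in every oocyte group, and all 14 morula markers a mean of at least 1 TPM in every morula group. Pcgf1 averaged 12.2 ± 1.52 RPKM in TKO and 12.3 ± 1.47 RPKM in DKO oocytes, against 1108 ± 39.9 RPKM in WT oocytes (SD, n = 3 each). Pcgf6 averaged 72.2 ± 9.86 RPKM in TKO and 57.1 ± 2.77 RPKM in DKO oocytes, against 153.8 ± 5.65 RPKM in WT oocytes, so its RNA was lower but not lost. Kmt2b was at 1.14 ± 0.148 RPKM in TKO and 3.90 ± 0.315 RPKM in DKO oocytes, against 4.85 ± 0.377 RPKM in WT oocytes. In 1 PRC1-CD library, replicate 2, the tissue label names an embryo although title and stage name an oocyte. In morulae 6 libraries lay far from their group (matTKO replicates 8 and 9, matDKO replicates 7, 8 and 9, and WT replicate 9), and results without them stand beside the main values.

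Of the members, 7 lie in 1 cluster on chromosome 15 and Ly6g6e on chromosome 17, in GRCm38 coordinates of GENCODE M21. From left to right the cluster holds Ly6d (chr15:74762056-74763620), Ly6k (chr15:74796874-74799986), Ly6e (chr15:74955051-74959905), Ly6a (chr15:74994877-74998031), Ly6c1 (chr15:75044018-75048830), Ly6c2 (chr15:75108158-75111970) and Ly6h (chr15:75551268-75567255). Ly6e is on the forward strand and the others of the cluster are on the reverse strand. Ly6g6e (chr17:35076902-35078804, forward strand) overlaps Ly6g6d, and Ly6k overlaps an antisense gene, Gm17189. The library chemistry does not keep the strand, so reads of such pairs cannot be told apart where the genes overlap.

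Close copies also share sequence. Of the 50-base stretches in Ly6c1 transcripts, 21.5% were also in Ly6c2 and 11.1% in Ly6a, and 15.035% of those of Ly6a were in Ly6c1. No 50-base stretch of Ly6e or Ly6d was found in another gene. The values of Ly6a, Ly6c1 and Ly6c2 are therefore uncertain to the extent that the authors' counting split shared reads.

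Promoters from RefSeq on GRCm38.p6 were held for 2 of the 8 members, Ly6c1 and Ly6c2, close copies of which Ly6c1 was detected in all 43 libraries while Ly6c2 was nearly absent. The 250 bases before each start are shown, both on the reverse strand, at chr15:75048838-75049087 for Ly6c1 and chr15:75111972-75112221 for Ly6c2. Capitals mark the bases that differ between them within the aligned stretch.
Ly6c1: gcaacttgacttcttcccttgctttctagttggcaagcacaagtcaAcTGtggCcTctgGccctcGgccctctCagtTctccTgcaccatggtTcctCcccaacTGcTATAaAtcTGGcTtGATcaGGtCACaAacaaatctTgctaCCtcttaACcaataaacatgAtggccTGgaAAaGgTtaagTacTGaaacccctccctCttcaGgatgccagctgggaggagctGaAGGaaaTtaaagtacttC
Ly6c2: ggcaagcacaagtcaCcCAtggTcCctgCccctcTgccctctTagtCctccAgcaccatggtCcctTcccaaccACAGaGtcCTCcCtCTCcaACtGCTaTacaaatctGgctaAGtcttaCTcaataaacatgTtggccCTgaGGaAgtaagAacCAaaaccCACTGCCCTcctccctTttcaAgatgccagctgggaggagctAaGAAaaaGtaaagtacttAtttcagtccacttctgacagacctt
Of 228 aligned columns, 164 were identical, 52 mismatched and 12 gapped, an identity of 71.9%. Ly6c1 has 1 CpG dinucleotide in its window and Ly6c2 has 0, where the median of 27025 promoter windows of this length is 6. The letters TATAAA, searched on both strands, are in the Ly6c1 window and not in that of Ly6c2, and 12.97% of all windows hold them. The STAT-type letters TTCNNNGAA (7.18% of all windows), which include TTCCNGGAA (0.914%), are in neither window.

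Ly6e was the leading member in oocytes by RPKM. It made up 61.3% of the summed RPKM of the 8 members in PRC1-CD oocytes and 65.1% in PRC1-WT oocytes. The share was 73.6% in TKO and 91.9% in DKO oocytes, against 64.1% in WT oocytes. In morulae Ly6a led instead, with 88.7% of the summed TPM in matTKO and 87.2% in matDKO embryos, against 81.8% in WT embryos.

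Comparing PRC1-CD with PRC1-WT oocytes asks which genes depend on the catalytic activity of PRC1. Ly6a, Ly6e and Ly6k rose, and Ly6g6e, chosen on this comparison, was higher. Ly6c1 did not pass the test, and no tested member fell. Of the 5 members that passed the filter on low values (1 group of the table with a mean of 1 RPKM or more), Ly6g6e was chosen on this comparison, and of the other 4, 3 were called higher and 0 lower; Ly6k and Ly6g6e passed the filter only through the PRC1-CD group. Of all tested genes 22.9% were called, 17.3% higher and 5.61% lower.

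Ly6a was at 43.7 and 42.4 RPKM in PRC1-CD oocytes, against 10.7 and 12.1 RPKM in PRC1-WT oocytes. Both PRC1-CD libraries stood above both PRC1-WT libraries, and the log2 change was 1.83 ± 0.16 (SE, n = 2 each; limma, adjusted p = 0.000472).
Ly6e, the syncytin-A receptor, was at 133.5 and 151.1 RPKM in PRC1-CD oocytes, against 21.1 and 30.1 RPKM in PRC1-WT oocytes. The groups did not overlap, with a log2 change of 2.45 ± 0.20 (limma, adjusted p = 0.000394).
Ly6k was at 9.93 and 7.56 RPKM in PRC1-CD oocytes, whereas PRC1-WT oocytes had 0.12 RPKM in 1 library and were listed at 0 in the other. The log2 change was 3.19 ± 0.20 (limma, adjusted p = 0.000157), and 32.7% of its 50-base stretches lie in the overlapping antisense gene. Ly6k passed the filter on low values only through the PRC1-CD group, where it is high, so its call depends on that filter and supports nothing further.
Ly6g6e, used in the choice, was at 30.6 and 39.5 RPKM in PRC1-CD oocytes, against 0.24 and 1.24 RPKM in PRC1-WT oocytes, a log2 change of 4.42 ± 0.30. Its overlapping neighbour Ly6g6d was at 0.75 and 0.67 RPKM in PRC1-CD oocytes and listed at 0 in PRC1-WT oocytes.
Ly6c1 was at 2.55 and 2.69 RPKM in PRC1-CD oocytes, against 1.63 and 0.94 RPKM in PRC1-WT oocytes. The groups did not overlap, but the log2 change of 0.68 ± 0.20 missed the threshold (limma, adjusted p = 0.0516).
Ly6d was at 0.39 and 0.12 RPKM and Ly6h at 0.06 and 0.04 RPKM in PRC1-CD oocytes, and both were listed at 0 in PRC1-WT oocytes. Ly6c2 was listed at 0 in all 4 libraries.

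With any single library of the catalytic-dead set left out, Ly6a and Ly6e stayed called, with adjusted p between 0.0100 and 0.0260 (limma), where the lone library is assumed to vary like the others.
Markers of other cell types moved with this comparison. The summed RPKM of 18 granulosa and cumulus markers was 66.3 to 73.8 in PRC1-CD and 33.5 to 36.7 in PRC1-WT oocytes, and that of 12 ovarian stroma and theca markers was 9.17 to 9.40 in PRC1-CD and 1.46 to 1.77 in PRC1-WT oocytes. For 18 blood and endothelial markers, the cells in which Ly6a and Ly6c1 are best known, it was 26.5 to 26.9 RPKM in PRC1-CD and 14.1 to 18.0 RPKM in PRC1-WT oocytes. Of these 18, 6 were listed at 0 in both PRC1-CD libraries, among them Cd52, Cdh5, Emcn and both globin genes, against 7 in both PRC1-WT libraries, and Ptprc was at 0.03 RPKM in PRC1-CD and 0.01 RPKM in PRC1-WT oocytes. Of the 18 granulosa markers, 6 averaged at least 1 RPKM in PRC1-CD and 3 in PRC1-WT oocytes. Fshr averaged 15.3 RPKM in PRC1-CD and 0.55 RPKM in PRC1-WT oocytes. In PRC1-CD oocytes Foxl2 averaged 0.065 RPKM and Amh was listed at 0. Of the 12 stroma markers, 2 averaged at least 1 RPKM in PRC1-CD oocytes, led by Dcn at 5.4 RPKM. Col1a2, Acta2 and Tcf21 were listed at 0 there. The part of these marker lists in the Ly6 values was not tested.

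**Figure D1:**
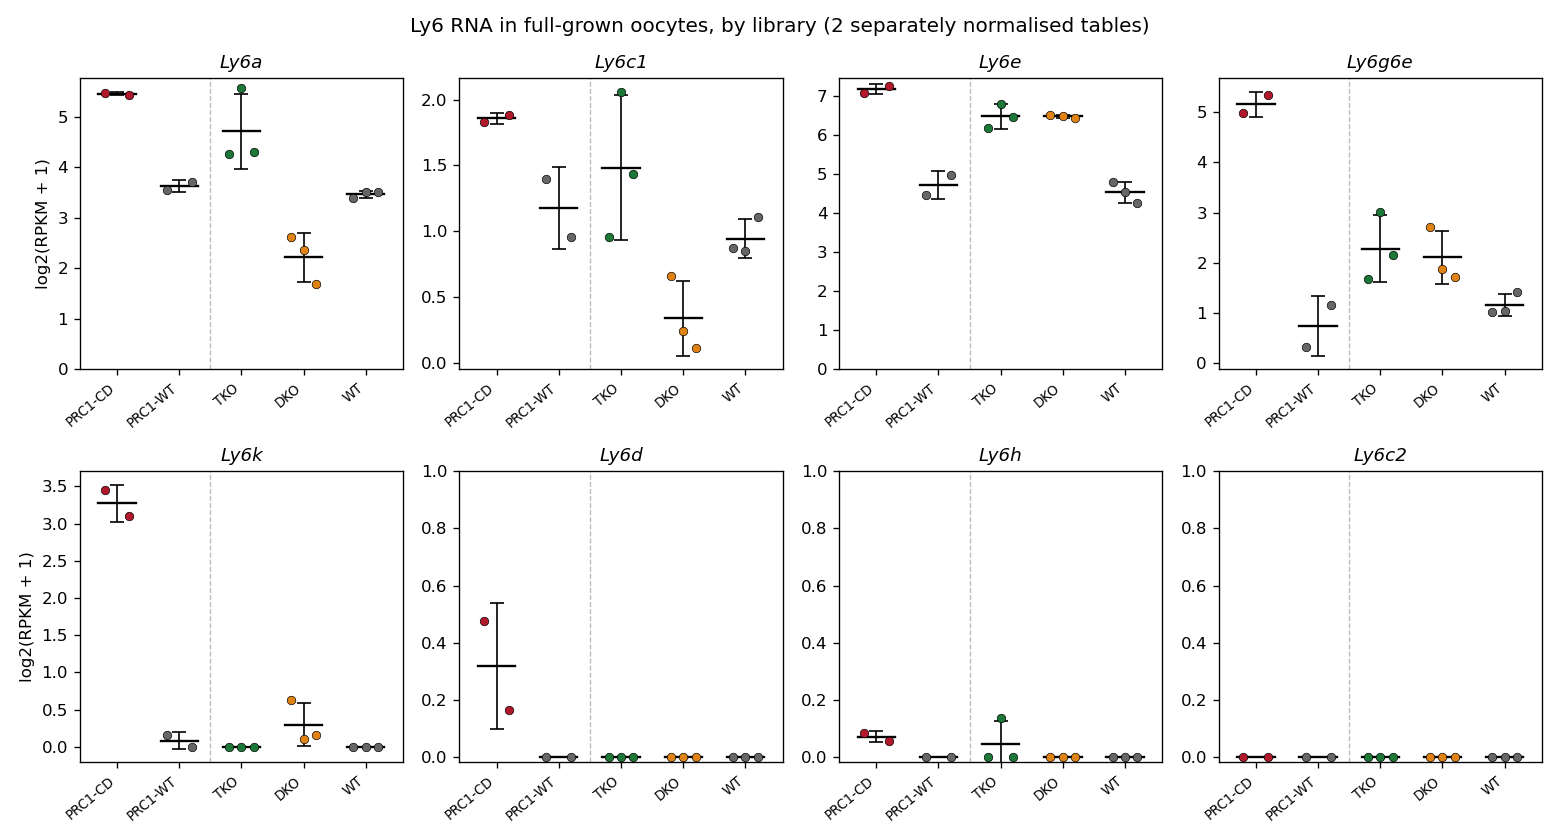
RNA of the 8 members in each oocyte library as log2(RPKM + 1); points are libraries, the horizontal line is the mean and the bars are 1 SD (n = 2 for PRC1-CD and PRC1-WT, n = 3 for TKO, DKO and WT), and the dashed line separates tables normalised apart. Ly6a lies below WT in all 3 DKO libraries and above WT in all 3 TKO libraries, while Ly6e is above WT in both.

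Comparing DKO and TKO with WT oocytes asks what loss of Pcgf1 and Pcgf6 does and what the further loss of Mll2 adds. Ly6e rose in both DKO and TKO oocytes. Ly6a fell in DKO and rose in TKO oocytes, so its change ran in opposite directions in the mutants. Ly6g6e rose in TKO oocytes, and Ly6c1 was higher in TKO than in DKO oocytes. In DKO against WT oocytes 1 of 4 tested members was called higher and 1 lower, where 28.8% of all genes were called, 17.5% higher and 11.3% lower. In TKO against WT oocytes 3 of 4 were called higher and 0 lower, where 51.3% of all genes were called, 31.2% higher and 20.1% lower. In TKO against DKO oocytes 2 of 4 were called higher and 0 lower, where 48.6% were called, 26.8% higher and 21.8% lower. Of these 2, Ly6c1 passed the filter on low values only through the TKO group, so its call depends on that filter. These 3 comparisons share libraries in pairs.

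Ly6a was at 18.4, 46.5 and 18.8 RPKM in TKO oocytes and at 5.16, 4.16 and 2.21 RPKM in DKO oocytes, against 9.51, 10.4 and 10.4 RPKM in WT oocytes. All TKO libraries stood above and all DKO libraries below the WT range. Its log2 change was 1.24 ± 0.33 in TKO (limma, adjusted p = 0.0104) and -1.25 ± 0.33 in DKO oocytes (adjusted p = 0.0185), both against WT.
TKO set against DKO oocytes, Ly6a differed by 2.49 ± 0.33 on the log2 scale (limma, adjusted p = 0.000244). Without TKO replicate 2, the highest library, the TKO change against WT was 0.82 (limma, adjusted p = 0.0139). The fall in DKO oocytes lost its call without WT replicate 2, WT replicate 3 or DKO replicate 3, with changes of -1.23, -1.23 and -0.98 and limma adjusted p of 0.0545, 0.0577 and 0.0682, and with no filter on low values (adjusted p = 0.0554).

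Ly6c1 was at 0.94, 3.17 and 1.70 RPKM in TKO oocytes and at 0.58, 0.18 and 0.08 RPKM in DKO oocytes, against 0.83, 0.80 and 1.16 RPKM in WT oocytes. DKO libraries were all below WT, and 1 TKO library lay within the WT range. The TKO to DKO difference was 1.15 ± 0.25 (limma, adjusted p = 0.00427), whereas neither the TKO change of 0.54 ± 0.25 (adjusted p = 0.0997) nor the DKO change of -0.61 ± 0.25 (adjusted p = 0.1003) against WT passed the test. Ly6c1 passed the filter only through the TKO group, where it is highest, so its calls depend on that filter. Without TKO replicate 1 the TKO change was 0.80 and passed (limma, adjusted p = 0.0162). The DKO change passed with a pseudocount of 0.1, at -1.65 (limma, adjusted p = 0.0391), and with quantile scaling, at -0.73 (adjusted p = 0.0468).

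Ly6e was at 70.8, 109.6 and 86.3 RPKM in TKO oocytes and at 89.6, 88.5 and 85.5 RPKM in DKO oocytes, against 26.8, 22.0 and 18.0 RPKM in WT oocytes. Every mutant library lay above every WT library. Its log2 change against WT was 1.94 ± 0.16 in TKO (limma, adjusted p = 1.18e-05) and 1.95 ± 0.16 in DKO oocytes (adjusted p = 2.56e-05). The TKO to DKO difference was -0.01 ± 0.16 (95% interval -0.36 to 0.35; limma, adjusted p = 0.981), beside 2.49 ± 0.33 for Ly6a, from which Ly6e is separated by Ly6i alone among Ly6 genes.

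Ly6g6e was at 2.21, 7.01 and 3.47 RPKM in TKO oocytes and at 5.56, 2.69 and 2.29 RPKM in DKO oocytes, against 1.03, 1.04 and 1.67 RPKM in WT oocytes. All mutant libraries stood above the WT range. The change in TKO oocytes was 1.13 ± 0.33 (limma, adjusted p = 0.0178) and that in DKO oocytes 0.95 ± 0.33 (adjusted p = 0.0579). The DKO change passed with a pseudocount of 0.1, at 1.35 (limma, adjusted p = 0.0385), and with only the compared groups in the fit (adjusted p = 0.0221). The TKO to DKO difference was 0.18 ± 0.33 (95% interval -0.57 to 0.92; limma, adjusted p = 0.683). The TKO call was lost without WT replicate 1 or WT replicate 2, with changes of 1.06 each and limma adjusted p of 0.0557 and 0.0539, and with no filter (adjusted p = 0.0549).

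The testis member Ly6k did not reach the filter in the knockout set, being at 0.55, 0.07 and 0.12 RPKM in DKO oocytes and listed at 0 in every TKO and WT library. Ly6h was at 0.10 RPKM in 1 TKO library and listed at 0 elsewhere in the set, and Ly6d and Ly6c2 were listed at 0 in all 9 libraries. The sum of the 18 blood and endothelial markers was 18.3 to 24.0 RPKM in TKO and 13.3 to 15.5 RPKM in DKO oocytes, against 12.6 to 15.7 RPKM in WT oocytes. Of the 18, 5 were listed at 0 in all TKO libraries, against 7 in DKO and 8 in WT oocytes. The granulosa sum was 34.8 to 39.4 RPKM in TKO and 27.1 to 32.9 RPKM in DKO oocytes, against 30.7 to 34.0 RPKM in WT oocytes. The sum of the 12 stroma and theca markers was 4.35 to 7.28 RPKM in TKO and 1.5 to 2.42 RPKM in DKO oocytes, against 2.42 to 3.55 RPKM in WT oocytes. Like Ly6a, it was highest in TKO and lowest in DKO oocytes, with the DKO and WT ranges meeting at 2.42 RPKM. Of the 2 tested genes of that list, the matrix proteoglycan gene Dcn averaged 1.83 ± 1.28 RPKM in TKO and 0.587 ± 0.242 RPKM in DKO oocytes, against 2.42 ± 0.552 RPKM in WT oocytes (SD, n = 3 each). Dcn fell in DKO against WT oocytes (-1.11 ± 0.27; limma, adjusted p = 0.0121) and was higher in TKO than in DKO oocytes (0.75 ± 0.27; adjusted p = 0.0393). Nr2f2, a nuclear receptor gene, rose in TKO (1.88 ± 0.14; limma, adjusted p = 5.22e-06) and in DKO oocytes (0.82 ± 0.14; adjusted p = 0.00183) against WT. Nr2f2 averaged 3.38 RPKM in TKO and 1.10 RPKM in DKO oocytes, against 0.187 RPKM in WT oocytes. It passed the filter on low values only through the mutant groups, so its calls depend on that filter. The collagen markers Col1a1 and Col3a1 were listed at 0 in all DKO and WT libraries, and Col1a2 and Tcf21 in all libraries of the 3 groups. The part of these markers in the Ly6 values was not tested.

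In morulae the maternal mutants are compared with WT embryos to see which effects of the oocyte last after fertilisation. Ly6a and Ly6c1, chosen on this contrast, were higher in both mutants. No other member was called in either mutant. Ly6e, which had risen in TKO and DKO oocytes, was not called in the embryos, and the difference between the stages was not tested. In matTKO against WT embryos 2 of 5 tested members were called, both of them the chosen genes, where 0.567% of all genes were called, 0.176% higher and 0.391% lower. In matDKO against WT embryos 1 of 5 was called, Ly6c1, where 1.74% were called, 0.329% higher and 1.41% lower. Nothing is read from these counts, since the choice fixed them.

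Ly6a ranged between 1213 and 8055 TPM with a median of 2695 TPM in matTKO embryos, and between 1290 and 4007 TPM with a median of 2247 TPM in matDKO embryos, against 721.8 to 2837 TPM with a median of 1170 TPM in WT embryos. All 10 matTKO and all 10 matDKO libraries were above the WT median, yet the ranges overlapped. Its mean ranked 37 among 35842 symbols in matTKO embryos and 69 in matDKO embryos, against 135 in WT embryos. The log2 differences were 1.13 ± 0.27 for matTKO and 0.77 ± 0.27 for matDKO embryos.
Ly6c1 ranged between 4.55 and 68.4 TPM (median 22.8) in matTKO embryos and between 3.63 and 44.3 TPM (median 20.8) in matDKO embryos, against 0.39 to 23.0 TPM (median 6.03) in WT embryos. Of the mutants, 9 of 10 libraries in each group were above the WT median. The log2 differences were 1.91 ± 0.45 for matTKO and 1.93 ± 0.45 for matDKO embryos.
With the 6 far libraries left out, Ly6a differed by 1.34 in matTKO and 0.78 in matDKO embryos, and Ly6c1 by 1.95 in matTKO and 2.18 in matDKO embryos.

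Setting matTKO against matDKO embryos was no part of the choice, and 0 of 5 members passed the test there, where 0.0689% of all genes were called by limma (0.046% higher and 0.023% lower) and 6.64% had an unadjusted p under 0.05. Ly6a differed by 0.36 ± 0.27 (95% interval -0.20 to 0.92; limma, adjusted p = 0.913). Ly6c1 differed by -0.02 ± 0.45 (95% interval -0.94 to 0.90; limma, adjusted p = 1).

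Ly6e was at 69.2 to 733.8 TPM (median 365.3) in matTKO embryos and at 77.7 to 436.4 TPM (median 263.1) in matDKO embryos, against 179.4 to 377.9 TPM (median 249.1) in WT embryos. The groups overlapped. Its changes against WT were 0.21 ± 0.31 in matTKO (95% interval -0.43 to 0.85; limma, adjusted p = 0.816) and 0.01 ± 0.31 in matDKO embryos (95% interval -0.63 to 0.65; adjusted p = 0.990). Without the 6 far libraries the changes were 0.66 in matTKO (limma, adjusted p = 0.0654) and 0.28 in matDKO embryos (adjusted p = 0.508).
Ly6g6e was at 0 to 9.88 TPM (median 3.65) in matTKO embryos and at 0 to 34.6 TPM (median 3.45) in matDKO embryos, against 0 to 9.09 TPM (median 2.51) in WT embryos. Its changes against WT were 0.12 ± 0.53 in matTKO (limma, adjusted p = 0.946) and 0.24 ± 0.53 in matDKO embryos (adjusted p = 0.843).
Ly6k was at 0 to 17.02 TPM (median 6.66) in matTKO embryos and at 0 to 13.5 TPM (median 2.42) in matDKO embryos, against 0 to 11.1 TPM (median 2.66) in WT embryos. The changes were 0.60 ± 0.56 in matTKO (limma, adjusted p = 0.688) and -0.32 ± 0.56 in matDKO embryos (adjusted p = 0.797). Ly6d and Ly6h were listed at 0 in all 30 morula libraries and Ly6c2 was at most 0.25 TPM.

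**Figure D2:**
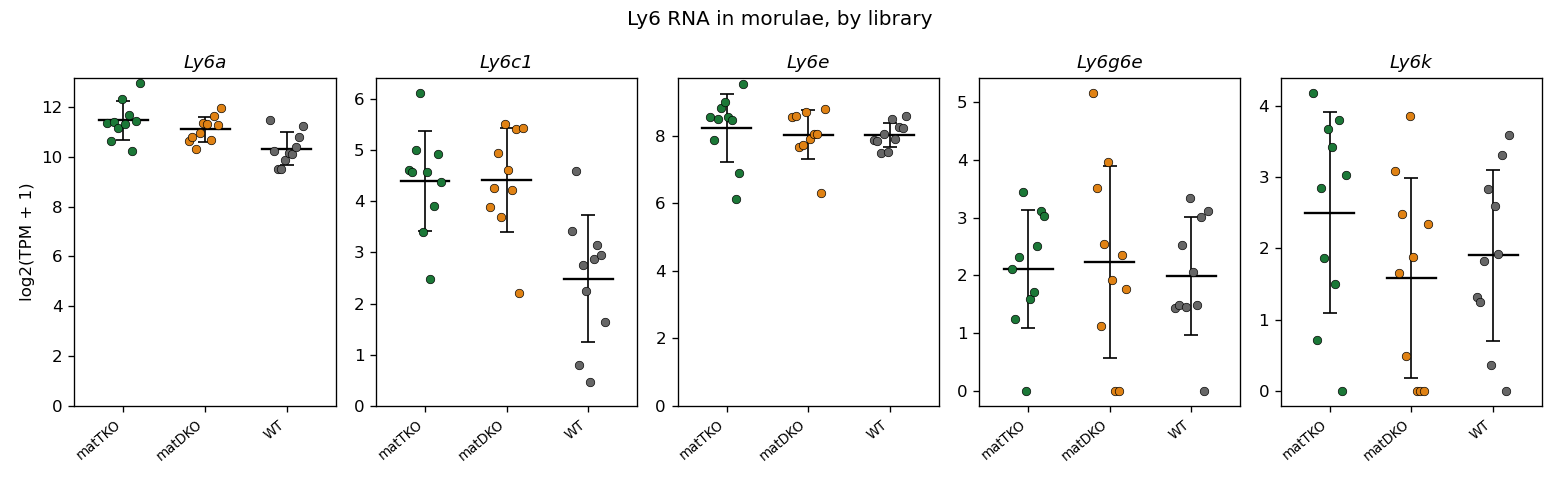
RNA of the 5 tested members in each of 10 matTKO, 10 matDKO and 10 WT morula libraries as log2(TPM + 1); points are libraries, the horizontal line is the mean and the bars are 1 SD. Ly6a and Ly6c1, which were chosen on these embryos, sit higher in both mutants with overlapping ranges, and the other 3 genes overlap throughout.

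Over the same libraries the summed level of 20 trophectoderm and placenta genes was 481.3 to 2766 TPM in matTKO and 346.4 to 3243 TPM in matDKO embryos, against 1233 to 5162 TPM in WT embryos, with overlapping ranges. Only 1 of the 14 tested genes of that list was called in matDKO embryos, Plac1 with a log2 change of -2.74 ± 0.47 (limma, adjusted p = 0.00135), and 0 in matTKO embryos. Over all tested genes 1.74% were called in matDKO and 0.567% in matTKO embryos. The sum of the 18 blood and endothelial markers was 33.0 to 106.9 TPM in matTKO and 24.6 to 65.0 TPM in matDKO embryos, against 18.0 to 65.6 TPM in WT embryos, led by Cd68 in all groups, with Cd34 and Emcn listed at 0 in each. The part of either list in the Ly6a and Ly6c1 values was not tested.

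**Figure D3:**
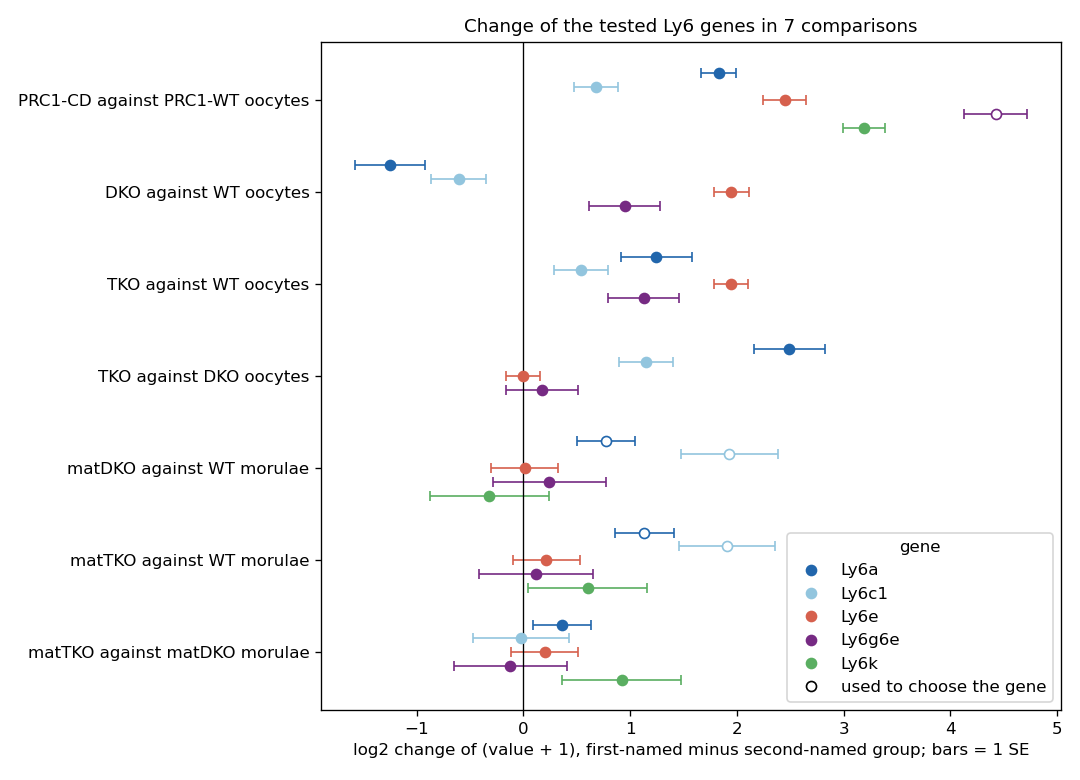
Log2 change of (value + 1) of each member in the comparisons where it passed the filter on low values, first-named minus second-named group, with bars of 1 SE; open points mark the comparisons used to choose the gene. Ly6a runs from -1.25 in DKO against WT oocytes to 2.49 in TKO against DKO oocytes, while Ly6e is at 1.94 to 2.45 in the 3 mutants' oocytes and at -0.01 in TKO against DKO.

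Among the other 8 symbols that start with Ly6, Ly6f and Ly6g6c were the ones tested in morulae and none reached the filter in oocytes. Ly6f, which lies between Ly6c2 and Ly6h, averaged 52.2 ± 29.0 TPM in matTKO and 26.9 ± 7.42 TPM in matDKO embryos, against 41.8 ± 15.5 TPM in WT embryos (SD, n = 10 each). It was at most 0.05 RPKM in oocytes, and neither the matTKO change of 0.03 ± 0.38 (limma, adjusted p = 0.987) nor the matDKO change of -0.56 ± 0.38 (adjusted p = 0.458) passed the test.

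Other LU-domain genes were counted next, from 41 listed symbols of which 35 are in the tables. In PRC1-CD oocytes 3 of 13 tested rose and 0 fell, with a list median of 0.52 beside 0.04 over all tested genes. Of all tested genes 17.3% rose there and 5.61% fell. Lypd4, a testis protein that mouse sperm need for fertilisation, was at 9.09 RPKM in PRC1-CD oocytes and listed at 0 in PRC1-WT oocytes (limma, adjusted p = 9.90e-05). It passed the filter on low values only through the PRC1-CD group, so its call depends on that filter. Acrv1, an acrosomal protein, rose by 1.35 ± 0.19 (limma, adjusted p = 0.00274), and the complement inhibitor Cd59b by 1.02 ± 0.20 (adjusted p = 0.0105).
In the knockout set 1 of 12 rose and 4 fell in TKO oocytes, and 5 of 12 rose and 2 fell in DKO oocytes, both against WT. Of the 5, Lypd4 and Gpihbp1 passed the filter on low values only through the DKO group. The gene that rose in TKO oocytes, Plaur, averaged 0.40 RPKM in WT oocytes, below the filter. The calls of these genes thus depend on that filter. Over all tested genes 31.2% rose and 20.1% fell in TKO oocytes, and 17.5% rose and 11.3% fell in DKO oocytes. Cd59b fell in TKO, to 2.79 ± 0.97 RPKM, and rose in DKO oocytes, to 15.6 ± 2.83 RPKM, against 5.24 ± 1.20 RPKM in WT oocytes (SD, n = 3 each). The TKO to DKO difference of Cd59b was -2.15 ± 0.20 (limma, adjusted p = 3.53e-05), the opposite sign to that of Ly6a. No LU-domain gene outside the members was called in the 3 morula comparisons, 12 tested. Calls over all genes were 0.567% in matTKO and 1.74% in matDKO against WT embryos, and 0.0689% in matTKO against matDKO embryos.

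The machinery that makes and attaches the GPI anchor, 30 listed genes, was counted as well. Beside these counts, 17.3% of all tested genes rose and 5.61% fell in PRC1-CD oocytes. The shares were 31.2% and 20.1% in TKO oocytes, and 17.5% and 11.3% in DKO oocytes. In PRC1-CD oocytes 2 of 25 tested rose and 1 fell, with a list median of -0.09. In TKO oocytes 6 of 24 rose and 3 fell, and in DKO oocytes 4 rose and 2 fell, with medians of 0.12 and 0.05. Of the genes of other GPI-anchored surface proteins, 6 of 18 tested rose and 0 fell in PRC1-CD oocytes. In TKO oocytes 5 of 17 rose and 1 fell, and in DKO oocytes 8 of 17 rose and 1 fell. Efna1, a membrane-anchored ephrin, averaged 78.0 ± 15.3 RPKM in PRC1-CD and 18.4 ± 1.38 RPKM in PRC1-WT oocytes (SD, n = 2 each; log2 change 2.01 ± 0.19; limma, adjusted p = 0.000573). It also rose in TKO oocytes, by 2.16 ± 0.14 (limma, adjusted p = 1.90e-06), and in DKO oocytes, by 2.50 ± 0.14 (adjusted p = 1.90e-06).

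Interferon-stimulated genes, a list of 42 that holds no member, were described because Ly6a and Ly6e respond to interferon in other mouse cells. In PRC1-CD oocytes 7 of 14 tested rose and 0 fell, with a median of 0.74 beside 0.04 over all genes. Of all tested genes 17.3% rose there and 5.61% fell. Among the 7, Rtp4, Psmb9 and Isg20 passed the filter on low values only through the PRC1-CD group, so their calls depend on that filter. Bst2, the virus-tethering protein tetherin, averaged 75.6 ± 5.95 RPKM in PRC1-CD and 33.0 ± 3.50 RPKM in PRC1-WT oocytes (SD, n = 2 each; log2 change 1.17 ± 0.16; limma, adjusted p = 0.00270). Rtp4 rose by 2.14 ± 0.16 (limma, adjusted p = 0.000282).
In TKO oocytes 4 of 13 rose and 1 fell, and in DKO oocytes 7 of 13 rose and 0 fell. Over all tested genes 31.2% rose and 20.1% fell in TKO oocytes, and 17.5% rose and 11.3% fell in DKO oocytes. B2m, the light chain of class I antigen-presenting molecules, averaged 181.8 ± 20.8 RPKM in TKO and 203.9 ± 19.5 RPKM in DKO oocytes, against 105.5 ± 11.3 RPKM in WT oocytes (SD, n = 3 each). Its changes were 0.78 ± 0.11 in TKO (limma, adjusted p = 0.000265) and 0.94 ± 0.11 in DKO oocytes (adjusted p = 0.000176), and the RNA sensor Ddx58 fell by 0.75 in TKO oocytes (adjusted p = 0.00167). In TKO against DKO oocytes 1 of 13 was higher and 4 were lower, where 26.8% of all genes were higher and 21.8% lower. The relation of this list to the Ly6 values was not tested. Of the interferon receptor and ligand genes, 2 of 6 rose in PRC1-CD oocytes, led by Ifnlr1 at 1.32 ± 0.26 (limma, adjusted p = 0.0110). There, 17.3% of all tested genes rose. Both called genes, Ifnlr1 and Ifngr2, passed the filter on low values only through the PRC1-CD group. In the morula comparisons 0 of 16 interferon-stimulated and 0 of 7 receptor and ligand genes were called. Calls over all genes were 0.567% in matTKO and 1.74% in matDKO against WT embryos, and 0.0689% in matTKO against matDKO embryos.

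Neighbouring genes within 200 kb of a member were counted to set the members beside the rest of their regions. Over all tested genes, 17.3% rose and 5.61% fell in PRC1-CD oocytes. The shares were 31.2% and 20.1% in TKO oocytes, and 17.5% and 11.3% in DKO oocytes. On chromosome 15, 31 of 51 annotated neighbours were in the tables, and 6 passed the filter in the catalytic-dead set. In PRC1-CD oocytes 1 of 6 rose, Top1mt by 1.24, and 0 fell. In TKO oocytes 3 of 5 rose (Top1mt, Zc3h3 and Zfp41), and in DKO oocytes 2 of 5 rose (Gpihbp1 and Top1mt). None of the 8 tested in morulae was called, where 0.567% of all genes were called in matTKO and 1.74% in matDKO against WT embryos. Around Ly6g6e on chromosome 17, in the histocompatibility region, 2 of 13 rose and 1 fell in PRC1-CD oocytes, H2-D1 by 1.58, Sapcd1 by 0.98 and Abhd16a with a change of -0.90. There, 9 of 14 rose and 2 fell in TKO oocytes, and 4 of 14 rose and 0 fell in DKO oocytes. Top1mt passed the filter on low values only through mutant groups in both oocyte sets. H2-D1 did so only through PRC1-CD oocytes in its set, and Gpihbp1 only through DKO oocytes in the knockout set. Zfp41 passed it there only through DKO and TKO oocytes. Vars and Atp6v1g2, on chromosome 17 and called higher in TKO oocytes, passed it only through the TKO group. The calls of all these genes depend on that filter.

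**Figure D4:**
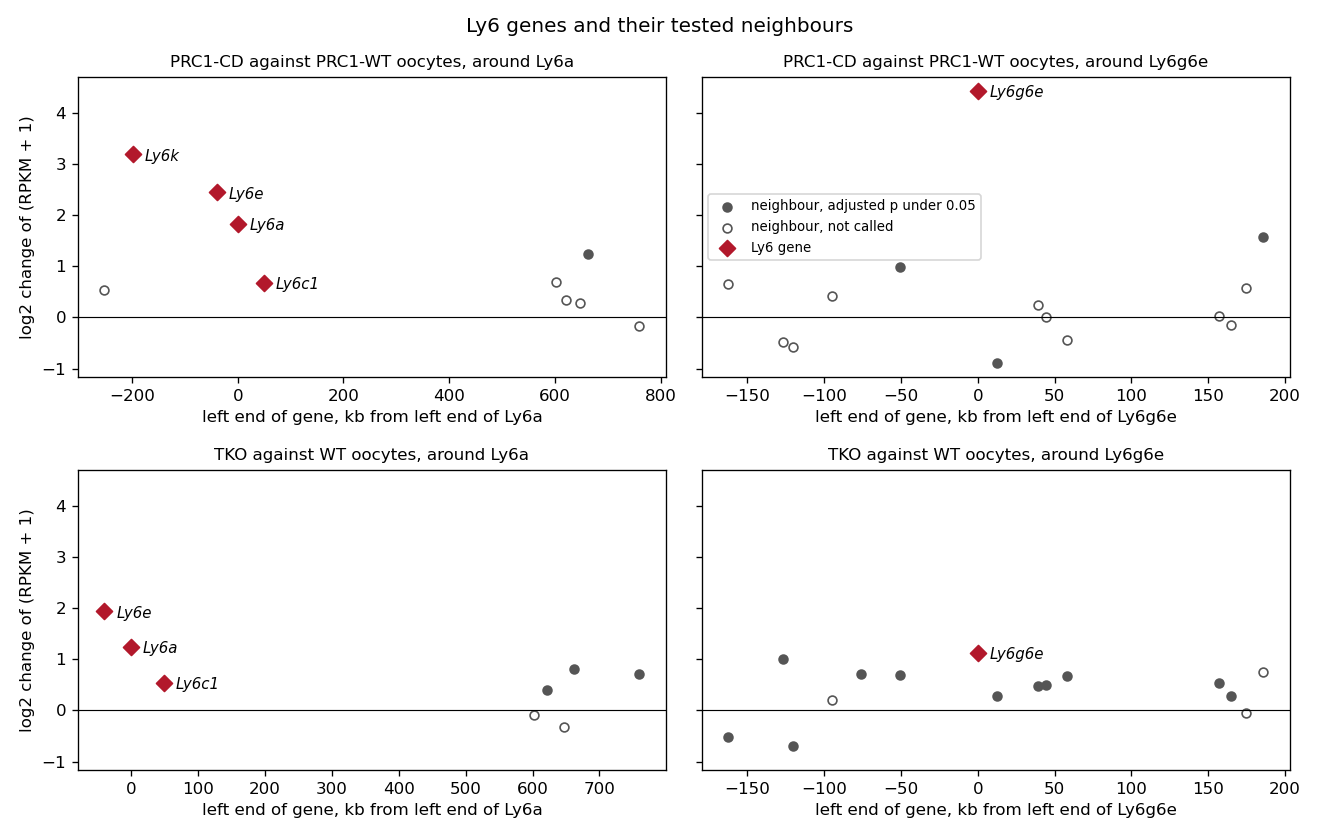
Log2 change of (RPKM + 1) of the members (red diamonds) and of tested neighbours within 200 kb of a member (filled circles called, open circles not) against the distance in kb between left ends, around Ly6a (left) and Ly6g6e (right), for PRC1-CD against PRC1-WT oocytes (top) and TKO against WT oocytes (bottom). In PRC1-CD oocytes Ly6e (2.45) and Ly6a (1.83) lie above every tested chromosome 15 neighbour, whose largest change is 1.24, whereas Ly6c1 (0.68) does not. Ly6k (3.19) also lies above those neighbours, but it passed the filter only through the PRC1-CD group. Ly6g6e, at top right, was chosen on this comparison.

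Genes with the pattern most like a member were ranked by the root mean square difference of log2 values, each library centred on the WT mean of its table. Over 30 morula libraries and 13056 genes, those nearest Ly6a were Npc2 (0.68), Malat1 (0.70) and Trhr2 (0.70), where Ly6a itself lay 1.01 from the WT mean. Nearest Ly6c1 were Zbtb32 (1.15), Platr4 (1.18) and Mov10l1 (1.24), where Ly6c1 lay 1.87 from it. Over 13 oocyte libraries and 12428 genes, those nearest Ly6g6e were Dapl1 (0.46), Grb14 (0.49) and Crygb (0.51), where Ly6g6e lay 1.92 from it. Dapl1 changed by 4.93 in PRC1-CD, 1.28 in TKO and 0.48 in DKO oocytes, beside 4.42, 1.13 and 0.95 for Ly6g6e. In the same order Grb14 changed by 3.54, 0.66 and 1.02, and Crygb by 3.75, 0.74 and 1.01. All were picked for nearness over these same libraries, the PRC1-CD ones used in the choice included, so likeness in these changes supports nothing. The nearness values are ranks over libraries that share groups, given without a test.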

How the data were processed

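The submitters' processing notes list RSEM 1.3.1, STAR 2.7.3 and STAR 2.7.6, featureCounts 1.6.0 and Trim Galore 0.6.4, with the builds GRCm38 and mm10, but tie no tool to a table. Per the labels' protocols, cDNA was made with SMART-Seq v4 and libraries with Nextera XT. The authors deposited the oocyte values as RPKM. The morula table is also titled RPKM, but its libraries sum to 999421 to 999922, so the deposited values were taken as TPM. No steps of single reads were visible among low values, so the depth is unknown and counting intervals were not made; a gene listed at 0 may be a failed estimate. In each oocyte file, 27 symbols turned into dates were dropped.

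From these, log2(value + 1) was fitted with limma 3.58.1 in R 4.3.3 (lmFit, eBayes with trend), all groups of a table sharing 1 spread, for genes whose mean reached 1 in any group; tests are two-sided, adjusted by Benjamini-Hochberg over all tested genes, with calls at an adjusted p under 0.05. The scripts were tested on simulated data. Errors are SE of changes and SD of levels. Named genes are the 8 members, up to 4 called genes of each list with the largest change, and the 3 genes nearest in pattern. Members and lists were chosen with earlier results of these data known. Alternatives were a pseudocount of 0.1, no filter, quantile and median-ratio scaling, a replicate block, compared groups only, each library left out and, chosen after seeing the data, 6 far morula libraries left out.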

Additional observations from a re-analysis of the deposited data

Results flagged for a closer look

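Ly6e in matDKO embryos had 1 low library, replicate 9, at 77.7 TPM, whose gap to the nearest other library on the log2(TPM + 1) scale was 0.552 of the group's whole range on that scale, above Dixon's 95% critical value. By construction chance passes that value in about 1 in 20 groups, and 15 sets of a member in a group were examined. The same library is among the 6 that lie far from their groups.

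Ly6a stood on opposite sides of WT in DKO oocytes and in matDKO embryos: every DKO oocyte library was below the WT oocyte range, with a log2 change of -1.25 whose call was lost without WT replicate 2, WT replicate 3 or DKO replicate 3 (limma, adjusted p of 0.0545, 0.0577 and 0.0682), whereas all 10 matDKO libraries were above the WT morula median, with a difference of 0.77. The oocyte change minus the morula difference is -2.02. The oocyte and morula tables were normalised separately, so this difference was not tested, and the morula value was used to choose the gene and carries no test.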

How the results depend on the processing

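The count of called members, the genes used in the choice included, was 4 in PRC1-CD oocytes under each alternative but the replicate block, which gave 5, and stayed at 2 in TKO against DKO oocytes and 0 in matTKO against matDKO embryos under each alternative run. In the PRC1-CD count Ly6g6e was used in the choice and Ly6k passed the filter only through that group, so it supports neither gene. In the TKO against DKO count, Ly6c1 passed the filter only through the TKO group. In DKO against WT oocytes it was 2, but 4 with a pseudocount of 0.1 (Ly6c1 and Ly6g6e added), 3 with quantile scaling and with only the compared groups, and 1 without a filter, and 1 to 2 with a library left out. In TKO against WT oocytes it was 3, 2 without a filter, and 2 to 4 with a library left out. In matDKO against WT embryos the count of 1 became 0 without a filter, and 0 to 1 with a library left out. In matTKO against WT embryos the count of 2 became 0 with a pseudocount of 0.1, 0 without a filter, 1 with median-ratio scaling, 1 with only the compared groups, and 0 to 2 with a library left out. The main counts in matTKO and matDKO against WT embryos hold only genes used in the choice, so nothing is read from them.

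Replicate numbers were not taken to pair the libraries: same-numbered deviations correlated at 0.088 in the catalytic-dead set, -0.048 to 0.109 in the knockout oocytes and -0.167 to 0.569 in morulae, where 13 of 30 pairs were over 0.1 (median 0.071, against 0.0004152 for other numbers). With the replicate block the matDKO count, genes used in the choice included, was 2, and nothing is read from it. Ly6c1 in PRC1-CD oocytes passed with that block (limma, adjusted p = 0.0493).

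Uncalled changes near 0 turned direction. Ly6g6e in matTKO against matDKO embryos was 0.15 with a pseudocount of 0.1; without the far libraries Ly6k in matDKO was 0.14 and Ly6g6e in matTKO embryos -0.28 against WT. With a library left out, Ly6c1 in matTKO against matDKO ran between -0.27 and 0.19, Ly6e in matDKO against WT between -0.0711 and 0.20, and Ly6e in TKO against DKO oocytes between -0.17 and 0.15. Ly6g6e ran between -0.0817 and 0.49 in matDKO against WT, -0.37 and 0.20 in matTKO against matDKO, -0.10 and 0.35 in matTKO against WT, and -0.18 and 0.48 in TKO against DKO oocytes. The causes were not tested.

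Over all genes, 3059 were called in PRC1-CD oocytes, and 1238 to 1543 with a library left out. The share of calls that were higher there was 75.5%, but 55.4% with quantile and 61.9% with median-ratio scaling, where the median of all genes moved to -0.07 from 0.04; in DKO oocytes the share was 60.8%, but 48.9% with quantile and 47.4% with median-ratio scaling, and in TKO oocytes 60.8%, but 48.9% with median-ratio scaling. In DKO oocytes 3701 genes were called, but 2421 without WT replicate 3. In matDKO embryos 227 were called, but 93 without a filter, 607 with the block and 85 to 477 with a library left out, the most without WT replicate 9. In matTKO embryos 74 were called, but 21 with a pseudocount of 0.1, 32 without a filter, 126 with quantile scaling, 127 with only the compared groups, 183 with the block, 404 without the far libraries and 37 to 160 with a library left out, the most again without WT replicate 9. In matTKO against matDKO embryos 9 were called, and 2 to 23 over the alternatives. The share higher in matDKO embryos was 18.9%, but 37.2% with quantile and 36.6% with median-ratio scaling. Depth is unknown, so members listed at 0 may lie below what these libraries could detect.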
